A study of Macrostomum lignano with 16 samples.

Results

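In the flatworm Macrostomum lignano, 38 transcripts took a different share of the reads of their own sibling transcripts in worms kept in groups of 8 than in worms kept alone. Siblings are rows of the deposited table whose identifiers have the same number before the dot. The table holds 76437 rows, of which 19394 have siblings, under 8209 numbers. Of these, 10212 rows under 3957 numbers had at least 50 summed reads per number in every library. The share of a row is its estimated read count divided by the sum over its siblings in the same library. The 38 switching transcripts were chosen by these shares: they are those whose mean share differed by at least 15 percentage points between octet and isolated worms, with no overlap of the 4 and 4 shares. They are 0.372% of the 10212 rows, and without the size limit 6.52% of those rows had shares that did not overlap. The octet and isolated libraries chose these transcripts, so every octet and isolated value given here is a description and not a test. The identifiers are not paired with gene names in the deposited table, so no function is given for any transcript.

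Adult whole worms of strain DV1, 66 to 69 days old, were sequenced as pools, with 4 replicate pools in each of 4 groups. Octet worms had lived in groups of 8 for 64 days and paired worms in groups of 2 for the same time. Joined worms had lived alone and received a partner for the last 24 h, and isolated worms had lived alone throughout. All groups shared the strain, the artificial sea water and the diatom diet, and the labels name no other treatment. The submitters call the 16 libraries independent and do not say how many worms made a pool, and p-values measure the spread between pools, part of which may be technical.

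Macrostomum lignano is a simultaneous hermaphrodite, with testes and ovaries in the same adult, and worms in larger groups are known to put more into their testes. In a transcriptome assembled without a genome, transcripts grouped under 1 number can be splice forms of a gene, alleles or close copies, and the table does not say which. RSEM, the program that made the estimates, divides a read that matches several transcripts among them, so siblings compete for the reads they have in common. A share therefore shows which sibling the reads of a set favoured, apart from how many reads the set drew. It is a share of reads and not of molecules, because longer transcripts yield more reads and lengths were not used here.

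The libraries held 7302416 to 10112451 estimated reads, and the 24 numbers of the switching transcripts took 0.267% to 0.48% of them. Levels are given as CPM, estimated reads adjusted for the depth of each library. On the first axis of a principal component analysis of log2 CPM, with 40.9% of the variance, paired replicate 4 scored -53.6, inside the octet range of -96.8 to -39.1. The other paired libraries scored -16.5 to 21.2. On the second axis, with 11.4%, isolated replicate 3 scored -60.3, and the other isolated libraries -11.2 to -3.59. Replicate 4 was the lowest of its group there in octet (-26.2, others 6.34 to 32.8), paired (-29.6, others 20.3 to 53.6) and joined worms (-30.8, others -1.89 to 10.3). In whole-worm RNA, fewer cells of a type and less RNA per cell cannot be told apart.

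The 38 transcripts fall under 24 numbers, of which 14 contribute 2 transcripts and 10 contribute 1. By share, 19 were higher and 19 lower in octet than in isolated worms. The shares of a set sum to 100%, so a gain of 1 sibling is a loss of the others. Of the 24 sets, 11 have exactly 2 siblings, whose shares mirror each other, 5 have 3, 6 have 4, 1 has 5 and 1 has 36. In total the sets hold 102 rows, so 64 siblings are not among the switching transcripts. Of the 38 switching transcripts, all 38 passed the filter on low counts, as did 28 of the other 64 siblings. For each number, the switching transcript with the largest difference stands for the set below, and in mirrored pairs it is the one with the higher share in octet worms. In RNA815_5886 a sibling whose octet and isolated shares overlapped, RNA815_5886.2, differed by more (-16.8 points) than the switching transcript RNA815_5886.1 (16.0 points).

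**Figure D1:**
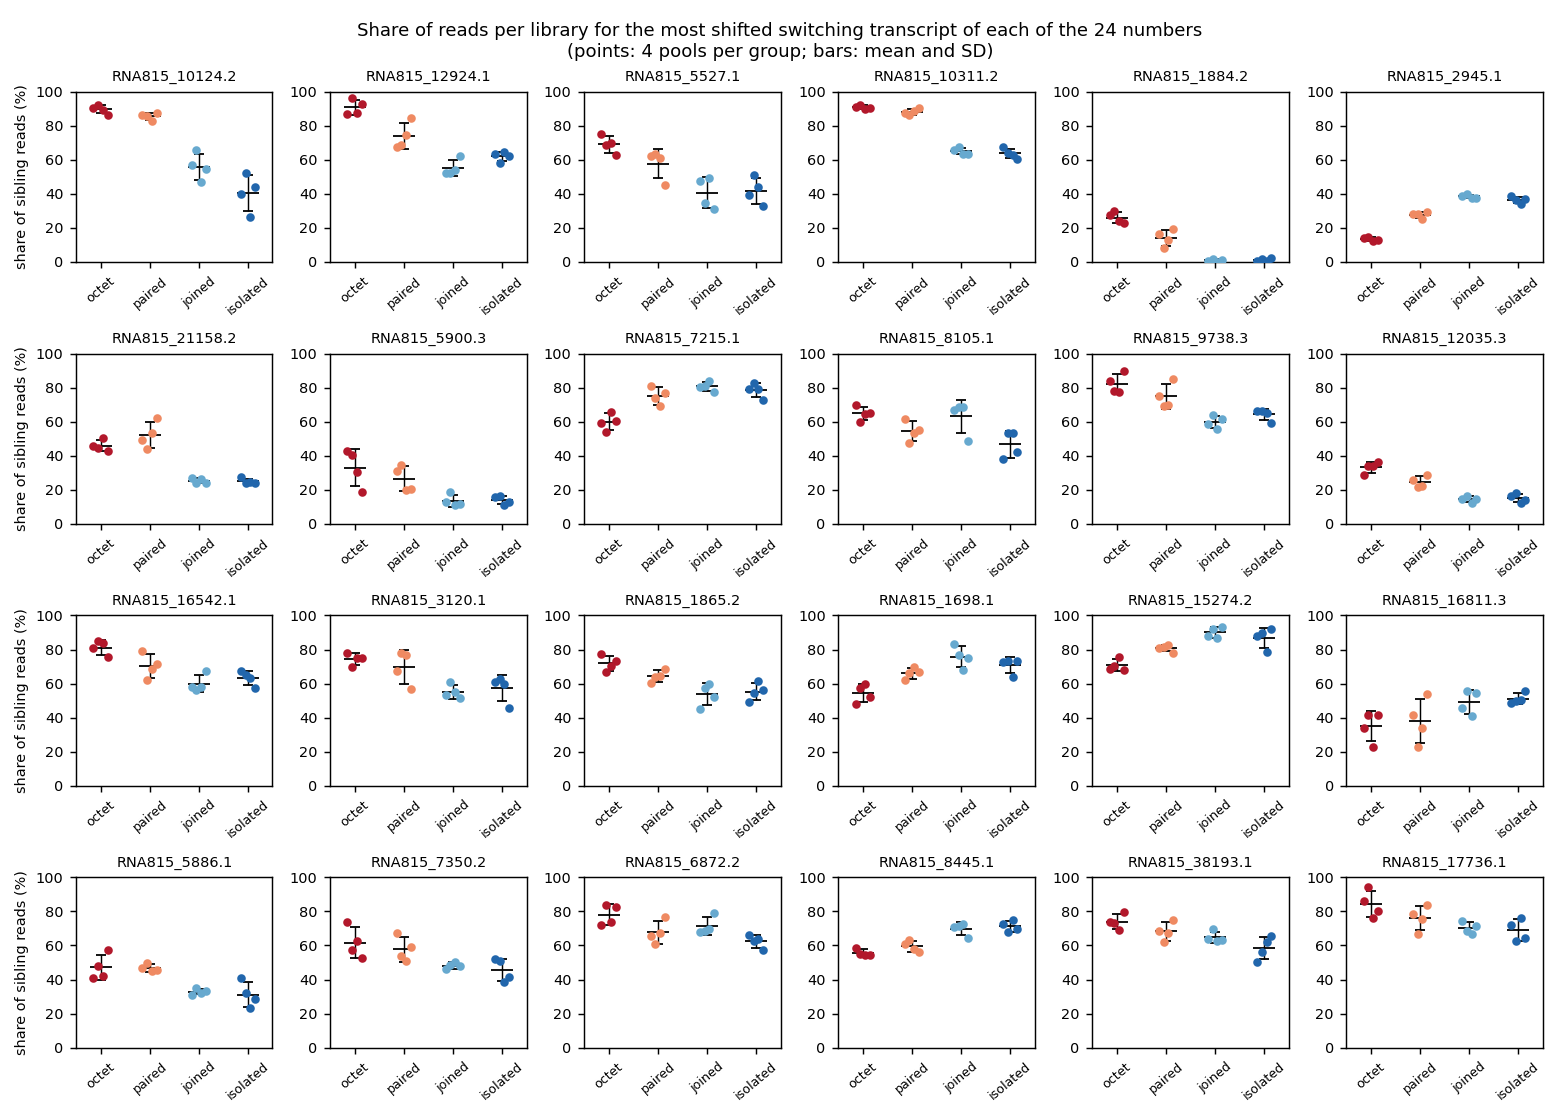
Share of the reads of its siblings (percent, vertical axis) in each of the 16 libraries for the most shifted switching transcript of each of the 24 numbers, with octet, paired, joined and isolated worms from left to right. Points are pools and bars are the mean and SD of 4 pools. In most panels the joined points lie with the isolated points and the paired points lie toward the octet points, and RNA815_21158.2 has its highest mean in paired worms.

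The widest switch was in the pair RNA815_10124.1 and RNA815_10124.2. RNA815_10124.2 took 90.5%, 92.0%, 89.5% and 86.5% of the reads of the pair in the 4 octet libraries and 86.1%, 85.5%, 82.8% and 87.5% in the paired libraries. It took 56.7%, 65.6%, 47.0% and 54.7% in the joined libraries and 39.8%, 52.1%, 26.5% and 44.1% in the isolated libraries. The octet and paired libraries all lay above every joined and isolated library, and in 3 of 4 isolated libraries RNA815_10124.1 took the larger part. The mean share was 89.6% ± 2.33 in octet worms and 40.6% ± 10.7 in isolated worms (mean ± SD, 4 pools each), a difference of 49.0 percentage points. Between paired and joined worms, whose libraries entered the choice only through the read minimum, the difference was 29.5 points. The log2 odds of the share were higher in paired worms by 2.21 with a standard error of 0.29 (limma adjusted p = 0.00046). RNA815_10124.2 itself rose in paired worms, to 34.9 ± 11.7 CPM against 5.49 ± 2.06 CPM in joined worms. The log2 fold change was 2.71 ± 0.32 (SE, limma-voom adjusted p = 1.35e-05). Its sibling RNA815_10124.1 stood at 5.75 ± 1.3 and 4.10 ± 0.944 CPM and did not pass (limma-voom adjusted p = 0.243). The level of RNA815_10124.2 was 67 ± 21.7 CPM in octet and 4.32 ± 1.73 CPM in isolated worms, and that of RNA815_10124.1 7.49 ± 1.85 and 6.01 ± 0.746 CPM. The pair drew 66.0 to 715 reads per library, and 25.0% of the values of RNA815_10124.2 were not whole numbers, which is how a divided read shows in the table.

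RNA815_1884.2 drew few reads in worms without lasting company. Its share was 27.7%, 30%, 23.9% and 22.7% in the octet libraries, 16.3%, 8.36%, 12.9% and 19.4% in the paired, 0.846%, 1.65%, 0% and 1.17% in the joined and 0.818%, 1.58%, 0.625% and 2.2% in the isolated libraries. In reads, the joined libraries held 1.90, 4.40, 0 and 3.10 and the isolated libraries 2.50, 4.00, 1.70 and 4.70. Every paired library lay above all of these, with 24.9 reads in the lowest. The level of RNA815_1884.2 was 17.2 ± 5.92 CPM in octet, 7.50 ± 4.44 in paired, 0.291 ± 0.227 in joined and 0.42 ± 0.2 in isolated worms (mean ± SD, 4 pools each). RNA815_1884.1 took the rest, and stood at 47.7 ± 8.94, 41.9 ± 10.5, 30.4 ± 2.57 and 32.8 ± 3.81 CPM in the same order. The log2 odds of the share of RNA815_1884.2 were higher in paired than in joined worms by 4.28 with a standard error of 0.58 (limma adjusted p = 0.000497). With a handful of reads in joined worms the size of that value depends on the pseudocount, and it was 3.43 with a pseudocount of 2. RNA815_1884.2 also rose as a transcript (limma-voom adjusted p = 0.00363), while RNA815_1884.1 did not pass (adjusted p = 0.139).

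Among the 4 siblings of RNA815_10311, reads moved toward RNA815_10311.2 and away from RNA815_10311.1. RNA815_10311.2 took 91.1%, 92.4%, 89.7% and 90.2% in the octet libraries and 87.6%, 86.3%, 88.8% and 90.4% in the paired libraries. In the joined libraries it took 65.7%, 67.8%, 63.6% and 63.7% and in the isolated libraries 67.5%, 64.0%, 62.7% and 60.6%. The lowest paired library lay well above the highest joined or isolated library, and the spread within each group was small. RNA815_10311.1 had the opposite course, with 2.95% ± 0.515 in octet, 6.10% ± 1.90 in paired, 25.9% ± 0.982 in joined and 27.1% ± 1.42 in isolated worms (mean ± SD, 4 pools each). Between paired and joined worms the log2 odds differed by 2.02 for RNA815_10311.2 and -2.48 for RNA815_10311.1, with standard errors of 0.13 and 0.18. These were the smallest adjusted p values of the switching transcripts (limma, 7.96e-08 and 2.99e-07). As levels, RNA815_10311.2 rose to 334 ± 50.1 CPM in paired worms, against 100.1 ± 11.4 CPM in joined worms, and RNA815_10311.1 fell to 22.6 ± 5.91 CPM, against 39.7 ± 2.82 CPM. The limma-voom adjusted p was 7.16e-08 for the rise and 0.00302 for the fall. The set held 1186 to 4693 reads per library, and 93.8% of the values of RNA815_10311.2 were not whole. The 2 minor siblings RNA815_10311.3 and RNA815_10311.4 stood at 3.93% and 1.68% of the reads in paired worms. RNA815_10311.3 lost share there against joined worms (limma adjusted p = 0.0489), though its level, 14.8 ± 3.04 against 10.2 ± 1.37 CPM, did not pass. RNA815_10311.4 rose in level, to 6.31 ± 0.996 CPM against 3.28 ± 0.641 CPM in joined worms (limma-voom adjusted p = 0.00877). Its share did not pass (limma adjusted p = 0.617).

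RNA815_21158 was the 1 set whose sum passed the test as lower in paired than in joined worms, and its 2 siblings fell unequally. The summed level was 60.0 ± 33.2 CPM in octet, 52.9 ± 11.6 in paired, 723 ± 272 in joined and 856 ± 267 in isolated worms (mean ± SD, 4 pools each). RNA815_21158.1 fell further than RNA815_21158.2, so that RNA815_21158.2 gained share while its own level fell. RNA815_21158.2 took 45.7%, 44.6%, 50.4% and 42.6% in the octet libraries, 49.4%, 43.9%, 53.2% and 61.9% in the paired, 26.8%, 24.2%, 26.5% and 23.9% in the joined and 27.2%, 24.2%, 24.6% and 23.8% in the isolated libraries. Joined and isolated libraries were nearly alike, between 23.8% and 27.2%, and all octet and paired libraries lay above them. Paired replicate 4 had the highest share of all. The log2 odds were higher in paired than in joined worms by 1.68 with a standard error of 0.16 (limma adjusted p = 7.41e-06). Both siblings lost their call with diffSplice, a test of sibling use in limma (adjusted p = 0.291). Paired over joined, the log2 level differed by -4.36 ± 0.34 for RNA815_21158.1 and -2.69 ± 0.30 for RNA815_21158.2 (SE, limma-voom adjusted p = 7.16e-08 and 5.59e-06).

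RNA815_2945 switched while its sum did not pass the test. Its 5 siblings together stood at 541 ± 112 CPM in octet, 542 ± 122 in paired, 456 ± 45.5 in joined and 591 ± 55.6 in isolated worms (mean ± SD, 4 pools each). RNA815_2945.1 took 14.1%, 14.6%, 12.3% and 13.1% in the octet libraries, 28.4%, 28.1%, 25.2% and 29.3% in the paired, 38.7%, 40%, 37.8% and 37.6% in the joined and 38.6%, 36.2%, 33.9% and 37.1% in the isolated libraries. The octet shares lay lowest and apart, the paired shares in between, and the joined and isolated shares highest and overlapping. Between paired and joined worms the log2 odds differed by -0.71 with a standard error of 0.08 (limma adjusted p = 9.35e-05). With diffSplice, a limma test of sibling use, the call was lost (adjusted p = 0.777). RNA815_2945.2 gained share, with 51.2% ± 1.72 in octet, 46.0% ± 1.25 in paired, 37.1% ± 1.09 in joined and 36.9% ± 1.52 in isolated worms. It lies just outside the 15-point limit, at 14.3 points, and its share was higher in paired than in joined worms (limma adjusted p = 0.000388). Its level rose in paired worms by 0.54 ± 0.15 on the log2 scale (SE, limma-voom adjusted p = 0.0379), while RNA815_2945.1, with 151 ± 39.1 CPM in paired worms against 176 ± 16.4 CPM, did not pass (adjusted p = 0.418). This set had 3486 to 6014 reads per library, and 100.0% of the values of RNA815_2945.1 were not whole.

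RNA815_12035, the set with the most reads (6736 to 16083 per library), switched toward RNA815_12035.3. The share of RNA815_12035.3 was 28.5%, 33.8%, 34.2% and 36.1% in the octet libraries, 26.0%, 21.9%, 22.2% and 28.9% in the paired, 14.6%, 16.5%, 12.3% and 14.3% in the joined and 16.1%, 18.2%, 12.4% and 14.3% in the isolated libraries. All paired libraries lay above all joined and isolated ones. The log2 odds were higher in paired than in joined worms by 0.96 with a standard error of 0.15 (limma adjusted p = 0.00247). The leading sibling RNA815_12035.1 lost share, with 58.9% ± 2.38 in paired and 67.2% ± 1.77 in joined worms (limma adjusted p = 0.0118). Neither transcript passed as a level, at 240.2 ± 66.4 and 169 ± 17.0 CPM for RNA815_12035.3 and 563 ± 71.1 and 793 ± 112 CPM for RNA815_12035.1 (limma-voom adjusted p = 0.0865 and 0.0913).

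In RNA815_8445 all 4 siblings rose in paired against joined worms, and the rise was smallest for RNA815_8445.1. The sum was 266 ± 55.4 CPM in paired and 128 ± 24.9 CPM in joined worms. Its log2 fold change was 1.06 ± 0.16 (SE, limma-voom adjusted p = 0.000373). RNA815_8445.1 rose by 0.83 on the log2 scale, against 1.61, 1.35 and 1.92 for its siblings RNA815_8445.2, RNA815_8445.3 and RNA815_8445.4 (limma-voom adjusted p = 0.00246, 0.000174, 0.000266 and 0.000132). The share of RNA815_8445.1 was 58.7%, 55.3%, 54.5% and 54.4% in the octet libraries, 60.9%, 63.4%, 57.9% and 56.1% in the paired, 70.6%, 71.7%, 72.6% and 64.3% in the joined and 72.6%, 68.1%, 75.1% and 69.4% in the isolated libraries. Joined replicate 4 came closest to the paired libraries. The log2 odds, paired minus joined, differed by -0.65 with a standard error of 0.13 (limma adjusted p = 0.0199). RNA815_8445.4 gained share (limma adjusted p = 0.0157). The call of RNA815_8445.1 was lost in 10 of 16 alternatives: without paired replicate 1, 3 or 4 or joined replicate 1, 2 or 3 (limma adjusted p from 0.0524 to 0.0991), on the arcsine scale (0.0689), in a fit to the 8 paired and joined libraries (0.0699), with no variance trend (0.139) and with diffSplice, a limma test of sibling use (0.403).

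**Figure D2:**
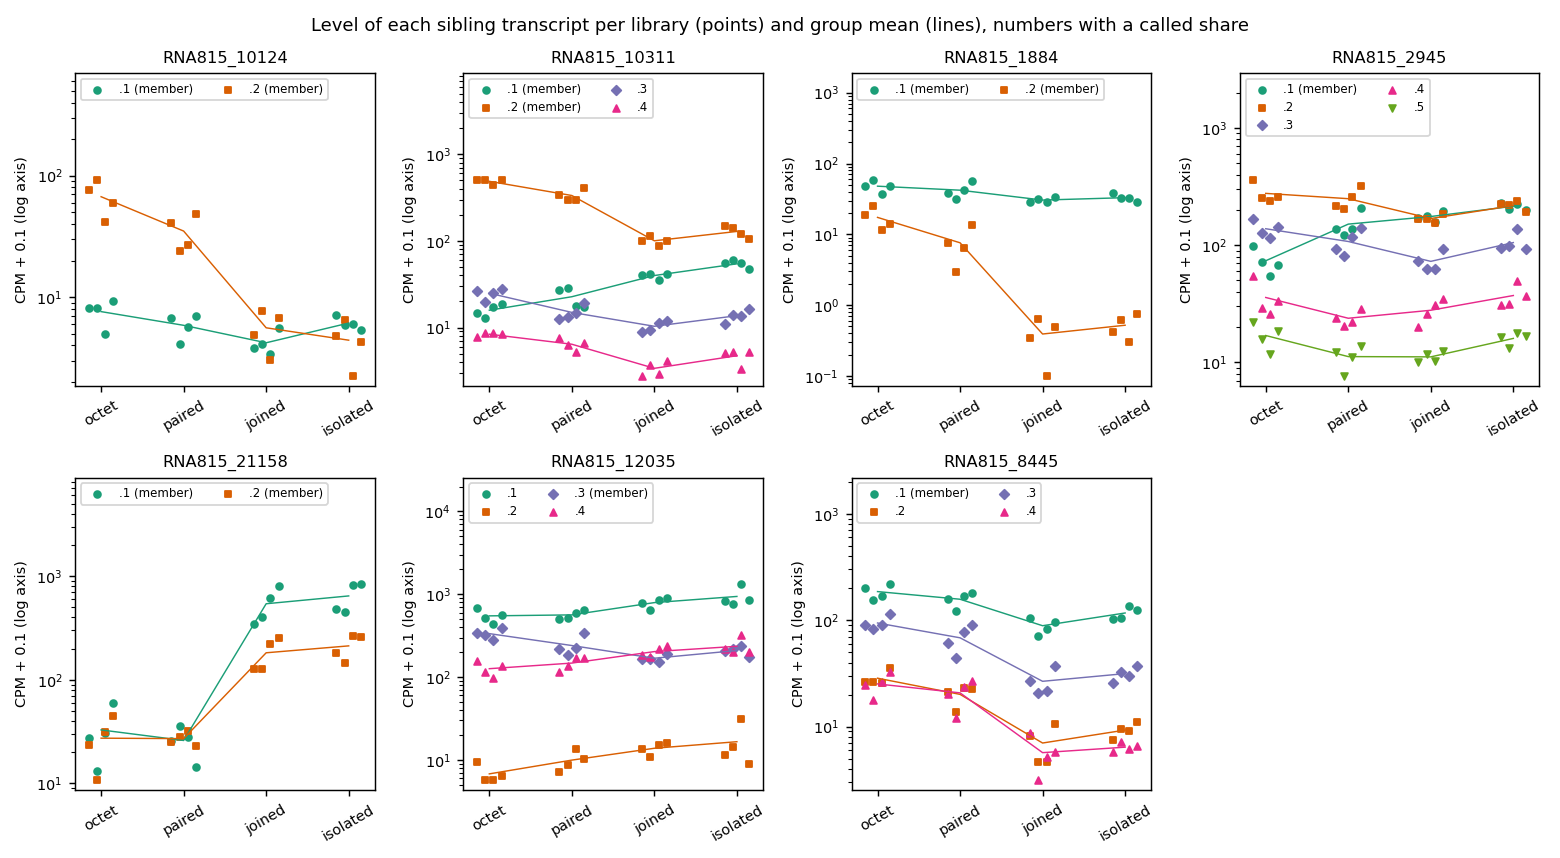
Level of each sibling (CPM + 0.1, log axis) in the 7 sets with a share that differed between paired and joined worms, with octet, paired, joined and isolated worms from left to right. Points are pools and lines join the group means. RNA815_10124.2 and RNA815_1884.2 stand high in octet and paired worms while their siblings did not pass the test, RNA815_10311.1 and RNA815_10311.2 differ in opposite directions, and both RNA815_21158 siblings stand low in octet and paired worms.

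Over all 38 switching transcripts, 11 under 7 numbers passed the test of shares between paired and joined worms, all 11 in the direction seen between octet and isolated worms (limma, adjusted p under 0.05 over the 10212 rows). The background for such a call is 0.627% of the 10212 rows, and in either direction 0.685%. Of the 11, 5 had a higher and 6 a lower share in paired than in joined worms, and 4 of the 7 numbers supply 2 transcripts each. An unadjusted p under 0.05 was found for 27 of the 38 and for 8.19% of all rows. The shares of paired and joined worms did not overlap in 23 of the 38, all in the octet-minus-isolated direction, against 3.39% of all rows in that direction and 4.37% in either. The mean moved in that direction in 35 of the 38, against 59.4% of all rows, a figure that also counts rows with no difference in either comparison. The median absolute difference between paired and joined worms was 10.7 percentage points in the switching transcripts and 0.837 in all rows. Mirrored pairs count double in these figures. The test uses 1 estimate of the spread from all 16 libraries, among them the octet and isolated libraries that chose the transcripts. Fitted to the 8 paired and joined libraries alone, the share test called 11, of which 10 are among the 11 above. The limma adjusted p was then 2.55e-05 for RNA815_10311.2, 0.0192 for RNA815_1884.2 and 0.0699 for RNA815_8445.1, which lost its call. Without paired replicate 4 the share test called 11, of which 10 are among the 11 above. Without isolated replicate 3 the rule gave 43 transcripts, of which 34 are among the 38.

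**Figure D3:**
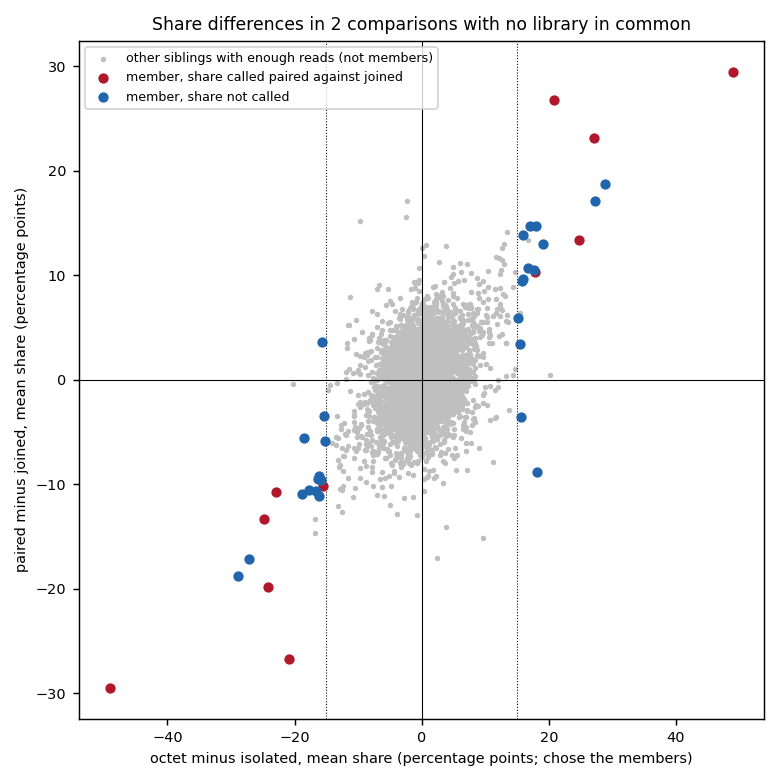
Difference in mean share between octet and isolated worms (horizontal axis, percentage points) and between paired and joined worms (vertical axis, percentage points) for all 10212 rows; dotted lines mark the 15-point limit. Red points are the 11 switching transcripts whose share differed between paired and joined worms, blue points the other 27, and grey points the remaining rows, with overlapping octet and isolated shares where they lie past the limit. Of the 38, 35 lie in the lower left or upper right part of the plot.

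In 4 sets outside those 7, named next, paired and joined shares did not overlap and differed by more than 12 points, but the test over all rows was not passed. RNA815_12924.1 took 87.1%, 96.1%, 87.5% and 93.0% in the octet libraries, 67.7%, 68.8%, 74.7% and 84.4% in the paired, 52.2%, 52.2%, 53.9% and 62.4% in the joined and 63.3%, 58.2%, 64.3% and 62.3% in the isolated libraries. RNA815_12924.2 fell to 3.62 ± 1.14 CPM in paired worms against 8.41 ± 1.90 CPM in joined worms (limma-voom adjusted p = 0.00459), with RNA815_12924.1 at 10.2 ± 0.756 and 10.4 ± 2.41 CPM. The log2 odds differed by 1.23 with a standard error of 0.35 (limma adjusted p = 0.17). RNA815_9738.3 took 84.0%, 78.0%, 77.4% and 89.6% in the octet, 74.9%, 69.2%, 70.0% and 85.1% in the paired, 58.9%, 64.0%, 55.8% and 61.6% in the joined and 66.1%, 66.6%, 65.0% and 59.5% in the isolated libraries. It rose as a transcript to 36.9 ± 1.97 CPM, against 21.9 ± 0.712 CPM in joined worms (limma-voom adjusted p = 0.00148), while its share did not pass (limma adjusted p = 0.141). RNA815_5900.3 varied widely within groups, with 42.9%, 40.3%, 30.4% and 18.5% in the octet and 30.9%, 34.4%, 19.6% and 20.7% in the paired libraries, and 12.9%, 18.4%, 10.8% and 11.6% in the joined and 15.8%, 16.3%, 11.1% and 12.7% in the isolated libraries. In every group its shares in replicates 1 and 2 lay above those in replicates 3 and 4. Its level was 53.3 ± 2.16 CPM in paired and 35.5 ± 5.75 CPM in joined worms, a rise (limma-voom adjusted p = 0.00771), while its share did not pass (limma adjusted p = 0.124). With replicate number as a block in the model, the share of RNA815_5900.3 passed (limma adjusted p = 0.00545). For RNA815_5900.1, the other switching transcript of that set, the octet libraries ranged in level from 56.4 to 249 CPM. RNA815_5886.1 had a mean share of 47.1% ± 7.33 in octet, 46.6% ± 2.26 in paired, 32.9% ± 1.58 in joined and 31.1% ± 7.37 in isolated worms (limma adjusted p = 0.17 between paired and joined worms).

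In RNA815_7215 the octet libraries lay apart from those of all other groups. RNA815_7215.1 took 59.3%, 54.0%, 65.9% and 60.6% in the octet, 81.2%, 73.9%, 68.9% and 76.7% in the paired, 80.6%, 80.9%, 83.8% and 77.6% in the joined and 79.4%, 82.4%, 79.4% and 72.7% in the isolated libraries. All octet libraries lay below all others, and the paired libraries overlapped with the joined and isolated ones. Paired and joined worms differed by -5.57 points, with a log2 odds difference of -0.45 and a standard error of 0.22, which did not pass (limma adjusted p = 0.615). The level of RNA815_7215.1 was 19 ± 4.12 CPM in octet, 22 ± 1.22 in paired, 21.5 ± 1.84 in joined and 20.9 ± 1.58 in isolated worms. RNA815_7215.2 stood at 6.27 ± 1.37, 3.20 ± 0.628, 2.63 ± 0.93 and 2.53 ± 0.959 CPM, and RNA815_7215.3 at 6.26 ± 0.688, 4.13 ± 1.36, 2.50 ± 0.712 and 3.31 ± 0.957 CPM, in the same order. None of the 3 passed as a level between paired and joined worms (limma-voom adjusted p = 0.904, 0.522 and 0.108).

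RNA815_5527 is a pair in which every value was a whole number to the 1 decimal deposited. RNA815_5527.1 took 75.0%, 68.8%, 69.7% and 62.9% in the octet, 62.0%, 63.1%, 60.9% and 45.3% in the paired, 47.5%, 34.5%, 49.4% and 31.3% in the joined and 39.3%, 51.1%, 44.1% and 33.1% in the isolated libraries. Paired replicate 4, at 45.3%, fell among the joined and isolated libraries, and the other 3 paired libraries lay above them. Replicate 4 had the lowest share in each of the 4 groups. The log2 odds differed between paired and joined worms by 1.01 with a standard error of 0.29 (limma adjusted p = 0.176). With replicate number as a block in the model, the share passed (limma adjusted p = 0.0346). Over the 38 switching transcripts the median part of values that were not whole was 87.5%, the same as over the 10212 rows. Whole values throughout were found in 2 of the 38, both of this pair, and in 14.7% of all rows.

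No switching transcripts in the remaining sets passed by share between paired and joined worms. For RNA815_15274.1 the share was 19.1% ± 1.99 in paired and 9.67% ± 3.00 in joined worms with no overlap (SD, n = 4 each, limma adjusted p = 0.0572), and the transcript rose (limma-voom adjusted p = 0.0377). The share of RNA815_15274.1 passed in 5 of 16 alternatives, among them without joined replicate 3 (limma adjusted p = 0.0351) and with a pseudocount of 2 (0.0269). RNA815_15274.2, the larger of the same set, had 80.8% ± 1.95 and 90% ± 3.20 (limma adjusted p = 0.0779), and passed in 3 of 16 alternatives. RNA815_3120.1, the main sibling among 36, had 69.8% ± 9.84 in paired and 55.1% ± 4.07 in joined worms, did not pass by share (limma adjusted p = 0.172) and rose as a transcript (limma-voom adjusted p = 0.0386). Its share passed in 2 of 16 alternatives, among them without paired replicate 4 (limma adjusted p = 0.0236). Its minor sibling RNA815_3120.7 lost share, at 4.99% ± 0.629 in paired and 12.1% ± 1.68 in joined worms (limma adjusted p = 0.0451). RNA815_1865.2 stood at 64.3% ± 3.52 against 53.7% ± 6.4 and RNA815_7350.2 at 57.8% ± 7.31 against 48.2% ± 1.86, both without overlap and neither past the test (limma adjusted p = 0.309 and 0.649). The shares of RNA815_16542.1, RNA815_1698.1, RNA815_16811.3 and RNA815_17736.1 overlapped between paired and joined worms, with differences of 10.5, -9.53, -11.1 and 5.88 points. In RNA815_38193 both siblings rose in paired worms, with log2 fold changes of 1.69 and 1.44 and standard errors of 0.29 and 0.24 (limma-voom adjusted p = 0.00129 and 0.000964), and the share of RNA815_38193.1 differed by 3.44 points (limma adjusted p = 0.848).

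In 2 sets the share went the other way between paired and joined worms than between octet and isolated worms. RNA815_8105.1 took 69.8%, 59.9%, 64.4% and 65.3% in the octet, 61.6%, 47.3%, 53.3% and 55.1% in the paired, 66.8%, 68.5%, 68.4% and 48.9% in the joined and 38.0%, 53.2%, 53.4% and 42.2% in the isolated libraries. Of the joined libraries, 3 lay within the octet range and 1 among the isolated ones. RNA815_6872.2 took 72.3%, 83.8%, 73.7% and 82.8% in the octet, 65.5%, 61.1%, 67.3% and 77.0% in the paired, 67.9%, 68.5%, 69.8% and 79.1% in the joined and 66.2%, 62.7%, 63.9% and 57.4% in the isolated libraries. Its joined libraries all lay above its isolated ones, the only such separation among the 24 transcripts that stand for the sets, against 2.61% of all rows for joined and isolated shares that do not overlap. The isolated shares took part in the choice of the 24, so the unselected rows are not a like background. Neither difference between paired and joined worms passed the test, at -8.85 points for RNA815_8105.1 and -3.59 for RNA815_6872.2 (limma adjusted p = 0.688 and 0.886). The lowest library sums of the 2 sets were 55.3 and 167 reads.

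Set on a scale from the isolated mean (0%) to the octet mean (100%), the paired mean of the 24 transcripts had a median position of 56.4%, with a range of 18.0% to 130.2%. The joined mean had a median of -2.17% and a range of -30.4% to 90.8%. The paired mean lay between both ends in 23 of the 24 and beyond the octet mean in RNA815_21158.2. It was past 50% in 15, led by RNA815_5886.1 (97.5%), RNA815_10124.2 (91.6%) and RNA815_10311.2 (90.5%) after RNA815_21158.2 (130.2%). The lowest were RNA815_7215.1 (18.0%), RNA815_1698.1 (28.2%) and RNA815_6872.2 (33.3%). The joined mean was past 50% in RNA815_8105.1 and RNA815_6872.2, and in 13 of the 24 it lay on the far side of the isolated mean. The joined and isolated means were within 5 percentage points of each other in 19 of the 24, with a median difference of 2.12 points. The octet and paired means were that close in 7, with a median difference of 7.76 points, and octet and paired shares did not overlap in 6 of the 24, against 3.6% of all rows. Those 6 were RNA815_12924.1, RNA815_1884.2, RNA815_2945.1, RNA815_7215.1, RNA815_1698.1 and RNA815_15274.2. Both ends of this scale come from the libraries that chose the transcripts, so the positions are a description. The octet shares were chosen for lying apart from the isolated ones. The 3.6% of unselected rows is therefore not a like background for the 6.

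**Figure D4:**
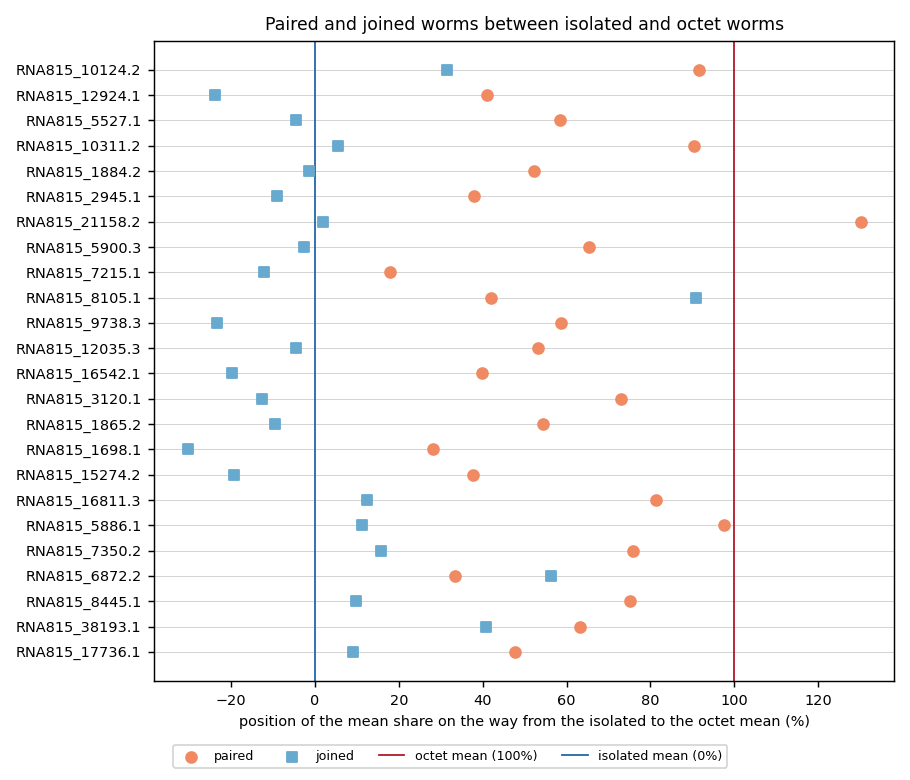
Position of the mean share of paired worms (circles) and joined worms (squares) on the way from the isolated mean (0%) to the octet mean (100%), horizontal axis in percent, for the most shifted switching transcript of each of the 24 numbers. Paired positions run from 18.0% to 130.2% and lie right of the joined position in 22 of 24 rows, all but RNA815_8105.1 and RNA815_6872.2.

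A share can move because 1 sibling changes, because siblings change in opposite directions, or because all change by unequal amounts. Between octet and isolated worms, the mean CPM of the most shifted switching transcript and of the sum of its siblings differed in opposite directions in 18 of the 24 sets. Both were higher in octet worms in 4 (RNA815_10124, RNA815_1884, RNA815_8445 and RNA815_38193) and both lower in 2 (RNA815_12924 and RNA815_21158). Several of these directions rest on small differences, such as a log2 ratio of -0.01 for the siblings of RNA815_8105.1. The summed level did not overlap between octet and isolated worms in 12 of the 24 sets, 9 higher and 3 lower, against 22.8% of all 35247 numbers tested. Between paired and joined worms the directions were opposite in 15 of the 24, both higher in 7 and both lower in 2. With upper-quartile scaling these counts were 16, 6 and 2.

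As levels between paired and joined worms, 14 of the 38 switching transcripts under 11 numbers passed, 10 higher and 4 lower in paired worms, against 4.58% of the 40265 transcripts tested (limma-voom, adjusted p under 0.05). Of these 14, 7 also passed by share. The other 64 siblings had 28 tested and 7 called, 6 higher and 1 lower. The median log2 fold change of the 19 switching transcripts with a higher share in octet worms was 0.51, and of the 19 with a lower share -0.25, with -0.02 over all transcripts tested. The summed level passed in 8 of the 24 sets, 7 higher and 1 lower in paired worms, against 5.02% of the 35247 numbers tested. The higher sums were RNA815_10311 (377 ± 50.6 CPM in paired and 153 ± 13.7 CPM in joined worms), RNA815_10124 (40.6 ± 12.9 and 9.59 ± 2.74), RNA815_38193 (65.9 ± 29.4 and 20.6 ± 4.93), RNA815_8445, RNA815_8105 (12.6 ± 2.36 and 7.51 ± 0.78), RNA815_9738 (49.5 ± 2.96 and 36.5 ± 2.19) and RNA815_1884 (49.4 ± 14.8 and 30.6 ± 2.74). The lower sum was RNA815_21158. Of the 7 sets whose share passed, 5 also passed by sum, and the other 2, RNA815_2945 and RNA815_12035, had log2 differences of the sum of 0.24 and -0.29 with standard errors of 0.15 and 0.16 (limma-voom adjusted p = 0.386 and 0.296).

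**Figure D5:**
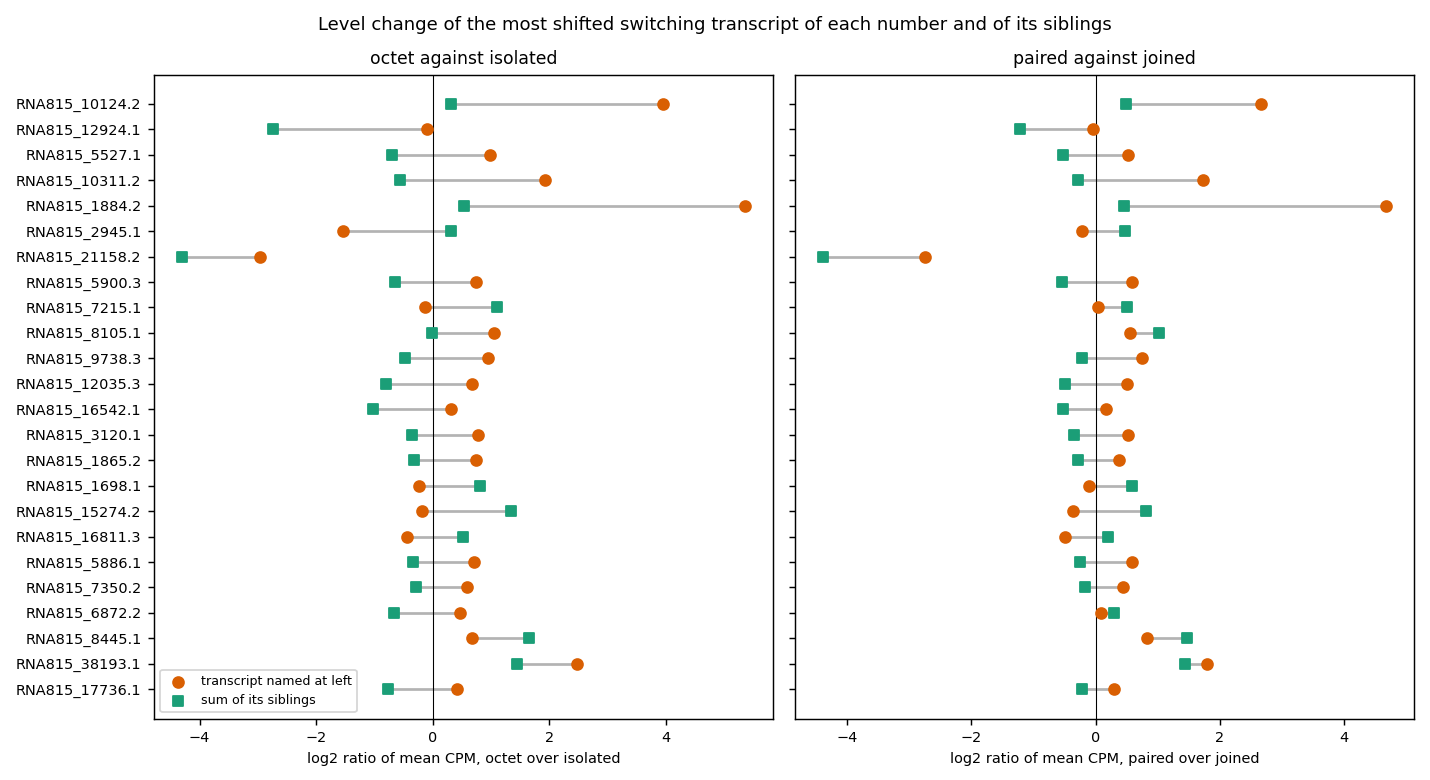
Log2 ratio of mean CPM for the most shifted switching transcript of each number (circles) and for the sum of its siblings (squares), octet over isolated worms at left and paired over joined worms at right. RNA815_1884.2 lies furthest right in both panels, at 5.36 and 4.69, with its sibling at 0.54 and 0.46, and RNA815_21158.2 lies left of 0 in both, at -2.96 and -2.76.

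The limit of 15 points falls within a continuous range of differences. Just inside lie RNA815_17736.1 and its mirror RNA815_17736.2, at 15.2 and -15.2 points, and RNA815_38193.2 at -15.4. Just outside lie RNA815_16376.2 and its mirror RNA815_16376.1, at 14.7 and -14.7, and RNA815_2945.2 at 14.3. When each of the 8 octet and isolated libraries was left out in turn, 20 of the 38 under 13 numbers met the rule every time. They include RNA815_10124, RNA815_10311, RNA815_1884, RNA815_2945, RNA815_21158 and RNA815_12035, and RNA815_17736 met it in 4 of 8. Leaving out a library cannot make separate shares overlap, so for the 38 only the 15-point difference could fail. That difference was computed on the values that chose the transcripts. The sets differed widely in depth, with a median of 252 reads per library against 228 over the 3957 numbers. The lowest sum in a single library was 55.3 reads, in RNA815_8105.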

How the data were processed

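Total RNA was extracted from pools of whole worms with TRIzol and sequenced after an mRNA protocol of Illumina, per the labels. The submitters' processing notes name Bowtie 0.12.7 and RSEM 1.1.19, and the rows belong to the assembly MLRNA110815, per the file headers. The deposited values are estimated counts with 1 decimal, written with a decimal comma and not scaled for depth, and 23.8% of them are not whole (tolerance 0.05).

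Shares were computed from the deposited estimates. Log2 odds of the share (pseudocount 0.5 on both sides) were fitted with limma 3.58.1 in R 4.3.3, with 1 linear model of the 4 groups over 16 libraries and a variance trend on read depth. Levels and sums were rounded and tested with limma-voom after TMM scaling (trims of 30% and 5%), for rows with at least 1.26 CPM in 4 libraries and 15 reads in all. All tests were two-sided, adjusted by Benjamini-Hochberg over every row of a test, with a threshold of 0.05. The scripts were tested on simulated data. Depth was 7302416 to 10112451 reads per library.

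The transcripts, the comparisons and the rules for naming were chosen with earlier results of these data known. Named in full are the 12 sets with the widest switch, the 8 transcripts with the smallest adjusted p of the share, the 5 sets with the most reads, those nearest the limit and the 3 that went most against the octet-minus-isolated direction. All other sets are given more briefly. Markers of cell types were not used, since identifiers carry no gene names, and transcript lengths and sequences were not used here. Same-numbered replicates were not treated as pairs.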

Additional observations from a re-analysis of the deposited data

Results flagged for a closer look

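Each group of 4 shares was examined for a library far from the other 3, with the gap to the nearest one, as a part of the range, above Dixon's 95% critical value. Among 96 groups (24 transcripts in 4 groups of worms) 7 met this, and chance gives about 1 in 20 for unselected groups. That rate need not hold for the octet and isolated groups, whose shares were chosen not to overlap. RNA815_12924.1 took 62.4% in joined replicate 4, against 52.2% to 53.9% in the other joined libraries. In paired replicate 4, RNA815_5527.1 took 45.3%, and in the other paired libraries 60.9% to 63.1%. Its share was lowest in replicate 4 in the other groups as well. RNA815_8105.1 took 48.9% in joined replicate 4, against 66.8% to 68.5% in the other joined libraries. In joined replicate 4, RNA815_16542.1 took 67.3%, and in the other joined libraries 56.4% to 58.2%. RNA815_3120.1 took 45.8% in isolated replicate 4, against 60.0% to 62.5% in the other isolated libraries. In isolated replicate 3, RNA815_1698.1 took 63.9%, and in the other isolated libraries 72.8% to 73.2%. RNA815_38193.1 took 69.7% in joined replicate 2, against 62.7% to 63.6% in the other joined libraries. Joined replicate 4 accounts for 3 of the 7, and paired replicate 4 and isolated replicate 4 are also among them.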

How the results depend on the processing

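The number of switching transcripts depended on the limits of the rule. It was 97 with a limit of 10 points and 13 with 20 points, and 62 with at least 20 and 20 with at least 100 summed reads, against 38. It was 44 when overlap was allowed, and 33 to 51 with 1 octet or isolated library left out. The count of shares called between paired and joined worms was 9 to 14 under 9 other settings (pseudocount 2, arcsine scale, no variance trend, the 8 libraries alone, replicate block, library weights, at least 100 reads, an adjusted p under 0.01 and diffSplice) and 10 to 11 with 1 library left out, against 11. Of the 11, 10 or more were called again in each setting, apart from the 9 that at least 100 reads leaves testable and called and the 7 of diffSplice. That last test did not call RNA815_2945.1 (adjusted p = 0.777), RNA815_8445.1 (0.403) or RNA815_21158.1 and RNA815_21158.2 (0.291), and the cause was not tested. RNA815_8445.1 lost its call in 10 of 16 settings. The count of levels was 12 to 16 under 8 other settings and 12 to 16 with 1 library left out, against 14, and that of sums 6 to 9 and 6 to 8, against 8. No switching transcript changed direction in any setting of the share test. The replicate block gave 14 called shares, 16 levels and 8 sums, and its further shares were RNA815_5527.1 and RNA815_5527.2 (adjusted p = 0.0346, against 0.176 without the block) and RNA815_5900.3 (0.00545, against 0.124). For shares 0 of the 24 same-numbered pairs of libraries correlated above 0.1, and 4 of the 8 paired and joined libraries correlated best with their own number. For log2 CPM these were 10 of 24 and 6 of 8. Of the 38 transcripts, 18 have fewer than 100 summed reads in some library, and whether depth limited their calls was not tested.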
